A study of Mus musculus with 16 samples.

Results

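A set of 9 genes of the transforming growth factor beta (TGF-beta) pathway were followed across 16 expression arrays of mouse group 2 innate lymphoid cells (ILC2s). They were the ligand Tgfb1, the receptors Tgfbr1 and Tgfbr2, the signal carriers Smad2, Smad3 and Smad4, and the inhibitors Smad7, Ski and Skil. These 9 genes were a listed set, taken by symbol with earlier results of these data known, and are 9 of the 22180 genes measured. Each was read by 1 probe set, so no member had probe sets that could disagree.

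ILC2s are lymphocytes without antigen receptors that live in tissues such as the lung and make type 2 cytokines, and IL-33 is an alarm cytokine that activates them. The lung cells came from C57BL/6J mice, either naive (2 arrays) or given IL-33 through the nose and taken at day 4 (3 arrays), at week 2 (3 arrays) or at 4 months (2 arrays). The node cells came from the lung-draining mediastinal lymph node (mLN) of IL-33-treated mice at day 4 (3 arrays) and at week 2 (3 arrays). The node samples' labels give no strain, there was no naive node group, and for sort markers and the age of the mice the sources used here give nothing. Arrays are labelled as biological replicates, with no word on whether a replicate was 1 mouse or a pool, so p-values measure only the spread between these arrays. In such bulk samples, fewer cells of a type and less RNA per cell cannot be told apart.

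TGF-beta 1 is made as a latent precursor that the protease furin cleaves and that integrins containing the alpha v chain can free from its latency peptide. The active ligand binds the type II receptor Tgfbr2, which recruits and phosphorylates the type I receptor Tgfbr1. Tgfbr1 then phosphorylates Smad2 and Smad3, which join Smad4 and enter the nucleus, while Smad7 blocks the receptor and Ski and Skil (SnoN) repress Smad target genes. TGF-beta is known to induce the integrin chain CD103, encoded by Itgae, on lymphocytes in mucosal tissue.

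Values are deposited log2 signals from robust multi-array average (RMA) processing, so a difference of 1 is a doubling of signal. A gene was called where limma's moderated test gave a Benjamini-Hochberg adjusted p under 0.05 over all 22180 genes. Signals of different genes were not set against each other, because probe sets differ in brightness.

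Arrays of naive and 4-month lung differed from the other 12 in signal range and replicate correlation, and the cause was not tested. Their interquartile range of log2 signal was 2.05 to 2.47, against 2.85 to 3.07 elsewhere, and the correlation of their replicate pairs over all genes was 0.937 and 0.947, against 0.977 or more. ILC2 markers were high on every array: the mean of 13 measured was 8.97 to 9.60, with Gata3 at or above percentile 97.5 of all genes. The mean of 10 T cell markers was 6.64 to 6.82 in naive lung and 5.08 to 5.55 elsewhere (summed linear signal 1815 to 2375 against 743 to 1874). The mean of 8 natural killer (NK) and ILC1 markers was 4.93 to 4.96 in naive lung, 4.45 to 4.82 at 4 months and 3.46 to 4.29 elsewhere. Their summed linear signal was 494 to 535, 237 to 317 and 124 to 281, and at 4 months 5 of the 8 were called higher than at day 4 and 2 higher than at week 2. The mean of 13 macrophage and monocyte markers was 6.39 and 6.42 on day 4 lung replicates 1 and 2, 5.69 on week 2 lung replicate 3, 4.32 to 5.27 on the other lung arrays, and 3.99 to 4.25 in the node. The summed linear signal of that list was 1414 to 5088 at day 4 and 580 to 3325 at week 2 in the lung, and 660 to 831 in the node. That of 8 mast cell, basophil and eosinophil markers was 389 to 567 in the day 4 node and 96.0 to 274 elsewhere. Their median log2 difference from day 4 lung to day 4 node was 0.01, as for all genes. For 9 stromal and epithelial markers the sum was 279 to 2285 in week 2 lung, 416 to 1180 in day 4 lung and 198 to 652 elsewhere. Of these, Scgb1a1 ranged from 2.60 to 11.02 over the arrays, and no other exceeded 7.81 (Pecam1). The median log2 difference of the 9 from naive lung was 0.05 at day 4 and -0.08 at week 2. For all genes it was -0.06 and -0.04. RMA signals have no true 0, so no marker can be said to be absent. The part of these differences in the results was not tested, except where values without certain arrays are given.

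Tgfb1, the ligand, was highest in the lung at day 4. Its signals were 7.90 and 9.04 in naive lung, 9.49, 9.37 and 9.57 at day 4, 9.06, 8.95 and 8.97 at week 2, and 8.34 and 9.05 at 4 months. In the node they were 8.73, 8.80 and 8.77 at day 4 and 8.25, 8.45 and 8.85 at week 2. All 3 day 4 lung arrays lay above the other 13 arrays, and naive replicate 1 was the lowest of all. Tgfb1 rose from naive to day 4 by 1.01 ± 0.28 (SE; 2.01-fold; 95% interval 0.42 to 1.59; adjusted p = 0.0210). At 4 months it was lower than at day 4 by a log2 difference of -0.78 ± 0.28 (adjusted p = 0.0480). The rise was lost with quantile normalization repeated (0.66, adjusted p = 0.0972) and with only the groups compared (0.110). The fall was lost with quantile normalization repeated (-0.31, adjusted p = 0.447), with array weights (0.0902) and with only the groups compared (0.0714). The rise was 0.44 (adjusted p = 0.304) without naive replicate 1, 1.00 (0.0552) without day 4 replicate 1 and 0.96 (0.0519) without day 4 replicate 3. The day 4 replicate with the lowest macrophage marker mean, 4.86, had the highest Tgfb1, 9.57. Without both high-macrophage day 4 arrays and week 2 replicate 3, the difference from naive was 1.10 with 1 day 4 array left (adjusted p = 0.184), and that of 4 months from day 4 was -0.88 (adjusted p = 0.225). The fall at 4 months was kept in the left-out fits only without either naive array, 4 months replicate 2 or week 2 mLN replicate 3, and was -0.43 (0.455) without 4 months replicate 1. In the other 11 left-out fits its adjusted p was 0.0513 to 0.103.

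**Figure D1:**
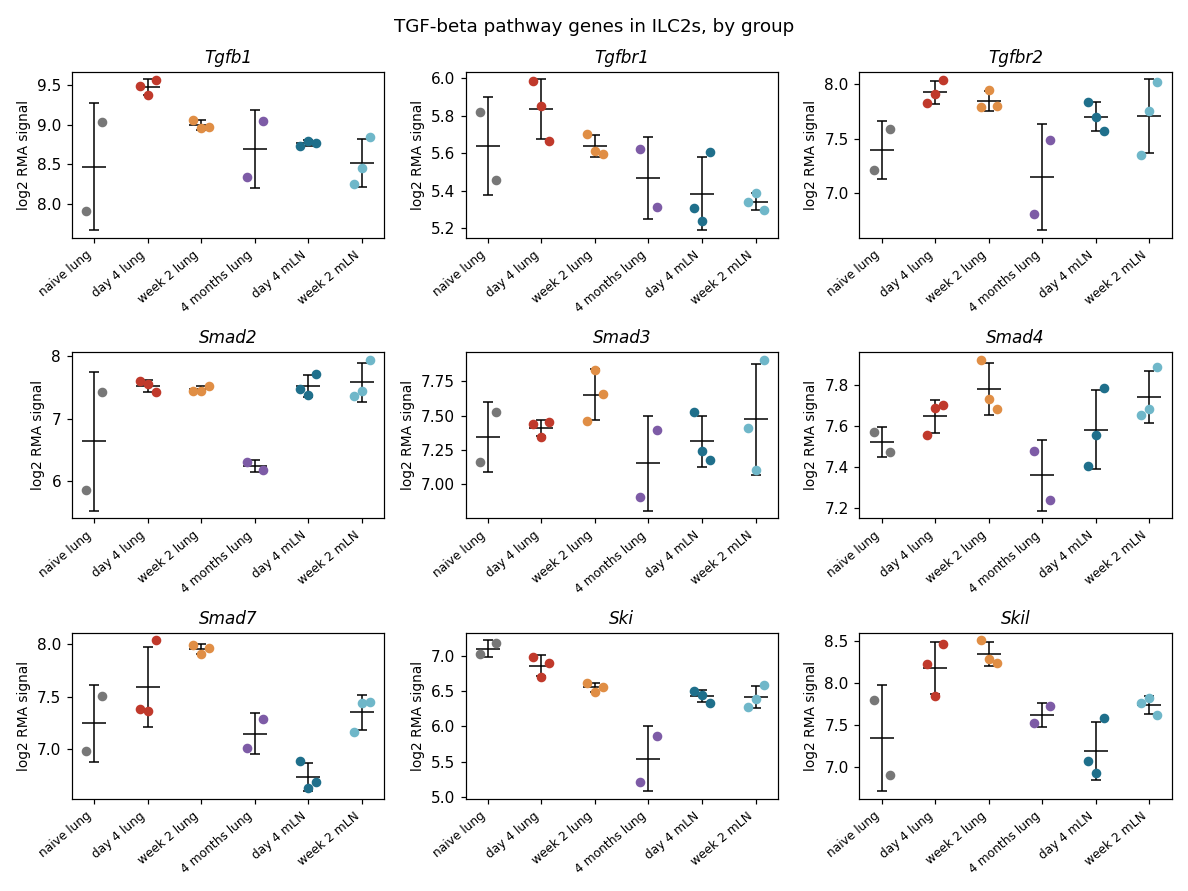
Log2 RMA signal of the 9 TGF-beta pathway genes in each of the 6 groups, 1 point per array, with the group mean (horizontal bar) and SD (error bar). Each panel has its own axis. Tgfb1 peaks in day 4 lung (mean 9.48), Smad2 and Ski are low at 4 months (means 6.25 and 5.54), and Smad7 and Skil are lowest in the day 4 node (means 6.74 and 7.19).

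Tgfbr1, the type I receptor, differed little. It ranged from 5.24 to 5.99 over all 16 arrays, with group means of 5.83 ± 0.16 (SD, n = 3) at day 4 and 5.64 ± 0.06 (n = 3) at week 2 in the lung, and 5.38 ± 0.19 and 5.34 ± 0.04 (n = 3 each) in the node. Naive and 4-month lung averaged 5.64 ± 0.26 and 5.47 ± 0.22 (n = 2 each). No comparison called it with equal weights. The largest difference in the 10 comparisons tested, day 4 node against day 4 lung, was -0.45 ± 0.16 (SE; 95% interval -0.80 to -0.10; adjusted p = 0.256). Between 4 months and day 4 in the lung it was -0.37 ± 0.18 (adjusted p = 0.153), and -0.51 (adjusted p = 0.0433) with array medians centred.

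Tgfbr2, the ligand-binding type II receptor, was lower in 4-month lung than at day 4 and week 2. Its signals were 7.21 and 7.59 in naive lung, 7.83, 7.91 and 8.03 at day 4, 7.79, 7.95 and 7.80 at week 2, and 6.80 and 7.49 at 4 months. In the node they were 7.83, 7.70 and 7.57 at day 4 and 7.35, 7.75 and 8.02 at week 2. The 4-month arrays lay below all day 4 and week 2 lung arrays, but 4 months replicate 2 was above naive replicate 1. The log2 difference was -0.78 ± 0.23 against day 4 (SE; adjusted p = 0.0205) and -0.70 ± 0.23 against week 2 (adjusted p = 0.0459). Against day 4 the call was lost without day 4 replicate 3 (-0.72, adjusted p = 0.0546) or 4 months replicate 1 (-0.43, adjusted p = 0.312). Against week 2 it was kept in the left-out fits only without either naive array, 4 months replicate 2, week 2 mLN replicate 1 or week 2 mLN replicate 3, and was -0.35 (0.486) without 4 months replicate 1. In the other 10 left-out fits its adjusted p was 0.0528 to 0.120. When quantile normalization was repeated, which removes the narrower range of the 4-month arrays, the differences became -0.14 and -0.15 and both calls were lost. Both were also lost with array weights (adjusted p = 0.0702 and 0.120) and with only the groups compared (0.0718 for day 4). Neither call was kept without the 3 high-macrophage arrays, a fit with 1 day 4 lung array left, where the differences were -0.89 and -0.72.

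Among the Smads, Smad2 moved and Smad3 and Smad4 did not pass in any comparison. Smad2, which Tgfbr1 phosphorylates, gave 5.86 and 7.43 in naive lung, 7.60, 7.55 and 7.42 at day 4, 7.44, 7.44 and 7.53 at week 2, and 6.32 and 6.18 at 4 months. In the node it gave 7.48, 7.38 and 7.72 at day 4 and 7.37, 7.45 and 7.94 at week 2. Both 4-month arrays and naive replicate 1 were over 1 log2 unit below the other 13 arrays, which lay between 7.37 and 7.94. Smad2 was lower at 4 months than at day 4 by a log2 difference of -1.28 ± 0.31 (SE; 95% interval -1.94 to -0.62; adjusted p = 0.00776) and than at week 2 by -1.23 ± 0.31 (adjusted p = 0.0162). Both calls held with array weights (adjusted p = 0.0140 and 0.0334), which count noisier arrays less. They were lost when quantile normalization was repeated (-0.68, adjusted p = 0.178, and -0.69, adjusted p = 0.234), and without the 3 high-macrophage arrays (-1.18, adjusted p = 0.154, and -1.20, adjusted p = 0.0770). The second was also lost without 4 months replicate 1 (-1.29, adjusted p = 0.0922). Against naive lung the comparison turned on which naive array was kept. Day 4 minus naive was 0.88 ± 0.31 (adjusted p = 0.0643) and 1.67 (adjusted p = 0.000330) without naive replicate 2, and 4 months minus naive was -0.40 ± 0.34 (adjusted p = 0.605) and -1.18 (adjusted p = 0.0133) without naive replicate 1.

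Smad3, the other receptor-activated Smad, ranged from 6.91 to 7.91, and Smad4, the shared partner, from 7.24 to 7.92. Smad4 had the smallest spread of group means of the 9 genes, 0.42, at percentile 16.1 of all genes. Its largest tested difference was 4 months minus week 2 in the lung, -0.42 ± 0.18 (SE; 95% interval -0.79 to -0.05; adjusted p = 0.106), and with array medians centred it was -0.55 (adjusted p = 0.0396). For Smad3 the same comparison gave -0.50 ± 0.23 (95% interval -0.99 to -0.00418; adjusted p = 0.148).

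Smad7, which recruits ubiquitin ligases to Tgfbr1, was lower in the day 4 node than in the day 4 lung. The day 4 node arrays gave 6.89, 6.63 and 6.69, all below the other 13 arrays. The lung gave 6.99 and 7.51 when naive, 7.39, 7.36 and 8.04 at day 4, 7.99, 7.90 and 7.97 at week 2, and 7.01 and 7.29 at 4 months, and the week 2 node gave 7.16, 7.44 and 7.45. The day 4 difference between node and lung was -0.86 ± 0.20 (SE; 95% interval -1.28 to -0.44; adjusted p = 0.0264; array weights 0.0114). It was -1.30 (adjusted p = 0.0376) without the 3 high-macrophage lung arrays, where day 4 replicate 3 alone stands for the day 4 lung. It was lost without day 4 lung replicate 3 (-0.64, adjusted p = 0.142) or without day 4 mLN replicate 1 (-0.93, adjusted p = 0.0526), replicate 2 (-0.81, adjusted p = 0.132) or replicate 3 (-0.84, adjusted p = 0.0883), and in a fit of only these 2 groups (0.0757). At week 2 the node was again below the lung on every array, by -0.60 ± 0.20, which did not pass (adjusted p = 0.260; array weights 0.0437).

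Within the lung, Smad7 was high at week 2. Week 2 minus naive was 0.71 ± 0.22 (SE; adjusted p = 0.0546), and this passed with array medians centred (0.0435), dim genes left out (0.0429) or limma's trend and robust options (0.0454). It also passed without naive replicate 2 (0.97; adjusted p = 0.0299), day 4 replicate 3 (0.0317) or either 4-month array (0.0468). Smad7 was lower at 4 months than at week 2 by a log2 difference of -0.81 ± 0.22 (adjusted p = 0.0228). That call was lost without week 2 replicate 1 (0.0599), replicate 2 (0.0524) or replicate 3 (0.0600) and without 4 months replicate 1 (-0.67, adjusted p = 0.199). With quantile normalization repeated the difference was -0.27 (adjusted p = 0.510), without the 3 high-macrophage arrays -0.80 (adjusted p = 0.0617) and with array weights -0.81 (adjusted p = 0.0805).

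Ski, a nuclear repressor that binds Smad complexes, was the member with the largest spread of group means, 1.56, at percentile 93.3 of all genes. Its signals were 7.02 and 7.19 in naive lung, 6.98, 6.70 and 6.90 at day 4, 6.61, 6.49 and 6.56 at week 2, and 5.22 and 5.87 at 4 months. The node gave 6.51, 6.44 and 6.34 at day 4 and 6.28, 6.39 and 6.59 at week 2. The lung groups did not overlap in the order naive, day 4, week 2 and 4 months, although naive and day 4, and day 4 and week 2, did not differ by test (adjusted p = 0.418 and 0.549). Ski fell to 4 months from naive (-1.56 ± 0.21, SE; 95% interval -2.01 to -1.11; adjusted p = 0.00203), from day 4 (-1.32 ± 0.20; adjusted p = 0.000260) and from week 2 (-1.01 ± 0.20; adjusted p = 0.00419). The naive arrays, which had the highest Ski, had interquartile ranges of 2.39 and 2.45, and the 4-month arrays 2.05 and 2.47, as the plot of members against array properties shows. The array with the narrowest range, 4 months replicate 1, also had the lowest Ski, 5.22. With quantile normalization repeated, the 3 differences were -1.52, -0.91 and -0.68 and all passed. The fall from naive was lost with array weights (adjusted p = 0.108) and in a fit of only these 4 arrays (0.666), and the fall from week 2 was lost without 4 months replicate 1 (-0.68, adjusted p = 0.0763). Week 2 minus naive was -0.55 ± 0.20 (adjusted p = 0.0864) and passed when quantile normalization was repeated (-0.85, adjusted p = 0.0114) or either 4-month array was left out (0.0373). Day 4 minus naive was -0.24 ± 0.20 and also passed when quantile normalization was repeated (-0.62, adjusted p = 0.0345).

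Skil, which encodes the Ski-related repressor SnoN, was above its naive lung level in IL-33-treated lung, both at day 4 and at week 2. Its signals were 7.79 and 6.90 in naive lung, 8.23, 7.84 and 8.47 at day 4, 8.51, 8.29 and 8.24 at week 2, and 7.52 and 7.72 at 4 months. The node gave 7.07, 6.93 and 7.58 at day 4 and 7.77, 7.82 and 7.62 at week 2. All 6 day 4 and week 2 lung arrays lay above the other 10 arrays. Skil rose by 0.84 ± 0.26 at day 4 (SE; adjusted p = 0.0372) and by 1.00 ± 0.26 at week 2 (2.00-fold; adjusted p = 0.0236). Both rises missed the threshold with array weights (0.158 and 0.0866), with quantile normalization repeated (0.44, adjusted p = 0.342, and 0.67, adjusted p = 0.172) and without naive replicate 2 (0.39, adjusted p = 0.385, and 0.55, adjusted p = 0.234). They also missed it without the 3 high-macrophage arrays (1.12, adjusted p = 0.119, and 1.05, adjusted p = 0.0692) and with only the groups compared (0.102 at week 2). The day 4 rise was also lost without day 4 replicate 1 (0.81, adjusted p = 0.0929) or replicate 3 (0.69, adjusted p = 0.112), and the week 2 rise without week 2 replicate 1 (0.92, adjusted p = 0.0803) or replicate 2 (1.03, adjusted p = 0.0556).

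In the day 4 node Skil was lower than in the day 4 lung by a log2 difference of -0.99 ± 0.23 (SE; 95% interval -1.48 to -0.50; adjusted p = 0.0302; array weights 0.00629). This call was lost without day 4 lung replicate 1 (-0.96, adjusted p = 0.108) or replicate 3 (-0.85, adjusted p = 0.146), without day 4 mLN replicate 1 (-0.93, adjusted p = 0.130) or replicate 2 (-0.86, adjusted p = 0.180), and in a fit of only these 2 groups (0.0609). Without the 3 high-macrophage lung arrays it was -1.28 (adjusted p = 0.131). At week 2 the node minus lung difference of Skil was -0.61 ± 0.23, which did not pass (adjusted p = 0.378). From week 2 to 4 months in the lung Skil went from a mean of 8.35 to 7.62, a difference of -0.72 ± 0.26 (adjusted p = 0.0661). It passed without naive replicate 1 or 2 (0.0296 each) and with array medians centred (0.0273).

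The 250 bases before the start of Ski and of Tgfbr2 are shown because these were the members lower at 4 months than at both day 4 and week 2 for which RefSeq's table of promoters (GRCm38.p6) held an entry. The table held 5 of the 9 members. Both windows lie on the minus strand, Ski at chr4:155222536-155222785 and Tgfbr2 at chr9:116175364-116175613, and are written 5′ to 3′ with the Smad core motif AGAC, searched on both strands, in capitals.

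Ski: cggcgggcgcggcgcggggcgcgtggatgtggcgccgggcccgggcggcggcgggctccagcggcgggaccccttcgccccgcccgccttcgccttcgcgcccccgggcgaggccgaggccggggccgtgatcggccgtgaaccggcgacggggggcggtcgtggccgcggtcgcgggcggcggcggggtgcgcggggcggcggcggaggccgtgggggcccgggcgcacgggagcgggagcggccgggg

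Tgfbr2: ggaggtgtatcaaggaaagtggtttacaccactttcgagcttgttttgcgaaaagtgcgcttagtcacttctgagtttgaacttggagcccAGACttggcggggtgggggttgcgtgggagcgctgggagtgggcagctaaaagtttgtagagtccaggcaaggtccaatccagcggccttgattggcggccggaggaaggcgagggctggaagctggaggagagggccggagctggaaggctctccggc

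The Ski window had a GC content of 87.6% and held no AGAC, and the Tgfbr2 window had a GC content of 58.4% and held 1. At least 1 AGAC was found in 82.9% of all 32851 promoter windows of this length. Neither window held the CAGA box, written CAGACA and found in 17.1% of windows. Neither held the doubled core, GTCTAGAC (0.167%), or the AP-1 motif, TGANTCA (6.75%). Both strands were searched, and the CAGA box and the doubled core contain the core motif. A match is only a description of these letters.

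**Figure D2:**
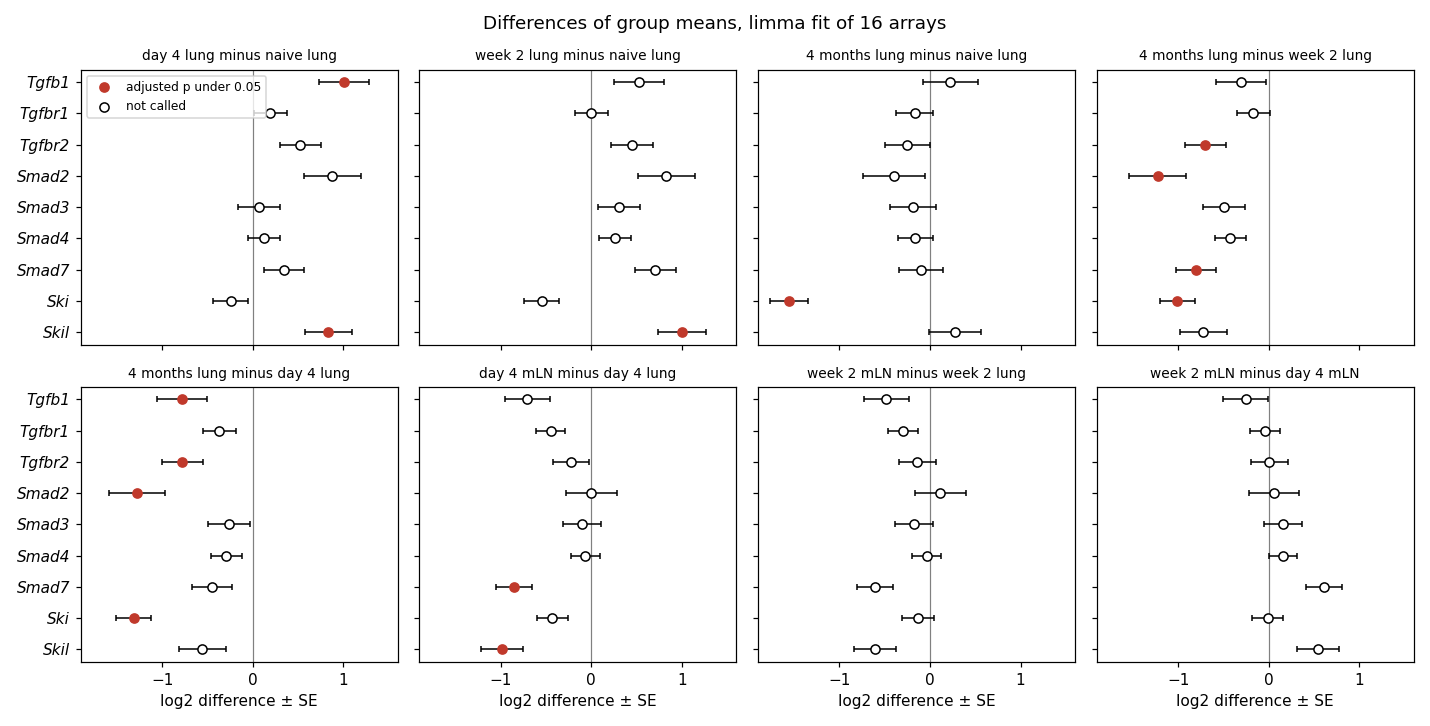
Differences of group means in log2 units (x axis) for the 9 genes in 8 comparisons, with limma's SE as error bars. Filled red points have an adjusted p under 0.05. The 4-month comparisons hold all called falls within the lung, and Smad7 and Skil are the filled points for day 4 node against day 4 lung.

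For day 4 against naive lung 2 members were called, both higher (Tgfb1 and Skil), where 16.6% of all genes were called and 10.8% were called higher. The members' median log2 difference was 0.35, against -0.06 for all genes. Members above 0 numbered 8 of 9 as deposited and 4 of 9 with quantile normalization repeated, where neither rise kept its call. Without day 4 replicate 1 or 3 the count was 0. For week 2 against naive lung 1 member was called (Skil, higher), where 9.62% of all genes were called and 6.75% were called higher. The medians were 0.45 and -0.04, and members above 0 numbered 7 of 9 as deposited and 5 of 9 with quantile normalization repeated. Without week 2 replicate 1 or 2 the count was 0. Without naive replicate 2, which leaves 1 naive array, the differences were 1.10 for Tgfb1, 1.62 for Smad2, 0.97 for Smad7 and 0.55 for Skil. Without either 4-month array those of Smad7 and Ski were 0.71 and -0.55. The genes called in these fits were not the same as with all arrays, and their directions differed. Week 2 against day 4 in the lung called 0 members with limma, where 1.81% of all genes were called. It also called 0 at an unadjusted p under 0.05 (11.7% of all genes) and 0 with array weights (6.35% of all genes).

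Between week 2 and 4 months in the lung 4 members were called, all lower (Tgfbr2, Smad2, Smad7 and Ski), where 16.4% of all genes were called and 11.5% were called lower. The median difference was -0.70 over the members and 0.02 over all genes. Between 4 months and day 4, 4 members were called, all lower (Tgfb1, Tgfbr2, Smad2 and Ski), where 25.6% of all genes were called and 16.6% were called lower. These comparisons share the 4-month arrays. Members above 0 numbered 0 of 9 in each as deposited and 4 and 5 of 9 with quantile normalization repeated, where Ski kept its call in each. Against naive lung, the 4-month arrays gave 1 called member (Ski, lower), where 1.97% of all genes were called and 1.25% were called lower. Array weights called 0 members there and 0.018% of all genes. The 2 counts against day 4 and week 2 without 4 months replicate 1 were 2 and 0.

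For day 4 node against day 4 lung 2 members were called, both lower (Smad7 and Skil), where 2.33% of all genes were called and 1.35% were called lower. The medians were -0.43 for the members and 0.01 for all genes, and 8 of 9 members were below 0. The count was 0 without day 4 lung replicate 3 or day 4 mLN replicate 1 or 2. With array weights, which called 4.23% of all genes, Tgfb1 was called as well (-0.69; adjusted p = 0.0335), as it was when naive and 4-month lung were left out of the fit (12 arrays, difference -0.71, adjusted p = 0.0182), while equal weights over 16 arrays gave -0.71 ± 0.25 (SE, adjusted p = 0.219). For week 2 node against week 2 lung 0 members were called with limma, where 0.78% of all genes were called. At an unadjusted p under 0.05 it was 2 (Smad7 and Skil; 9.55% of all genes), and array weights called 1 (Smad7; 3.12% of all genes). From day 4 to week 2 within the node 0 members were called with limma, where 1.71% of all genes were called, and 0 with array weights, where 2.84% were. Smad7 (0.62 ± 0.20) and Skil (0.55 ± 0.23) were the 2 with an unadjusted p under 0.05, which 9.04% of all genes had. A test of whether the change from day 4 to week 2 differed between node and lung called 0 members, where 0.18% of all genes were called. It was also 0 at an unadjusted p under 0.05 (6.38% of all genes) and 0 with array weights (0.924%). For Smad7 that difference of changes was 0.26 ± 0.28 (95% interval -0.34 to 0.85), and for Skil 0.38 ± 0.33 (95% interval -0.32 to 1.08).

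**Figure D3:**
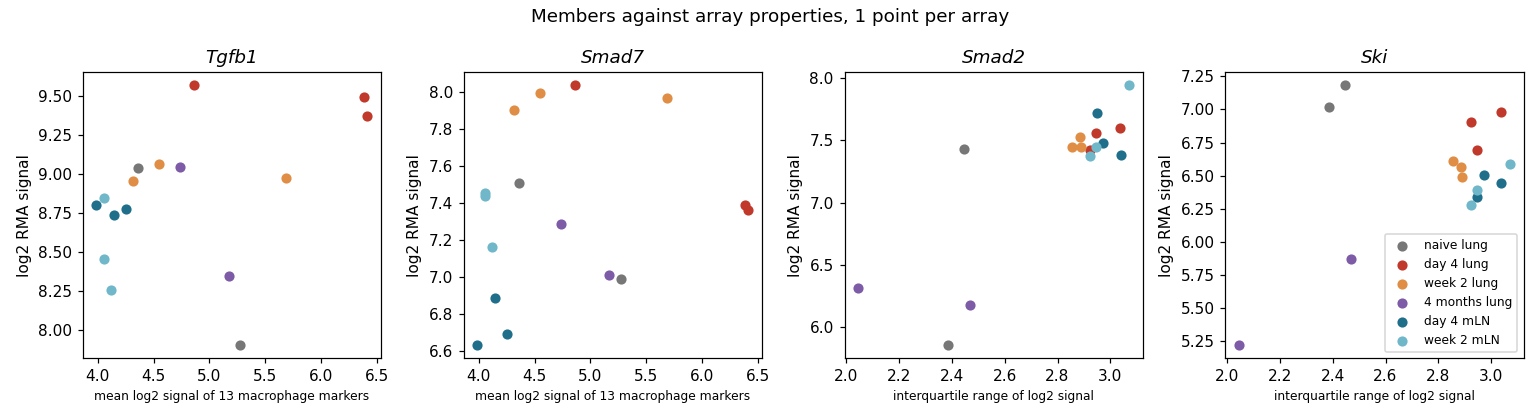
Log2 RMA signal of Tgfb1 and Smad7 (y axis) against the mean log2 signal of 13 macrophage markers on the same array, and of Smad2 and Ski against the interquartile range of log2 signal of the array, 1 point per array, coloured by group. Both arrays of day 4 lung with macrophage means above 6 have Tgfb1 close to that of the third (9.49 and 9.37 against 9.57) and Smad7 below it (7.39 and 7.36 against 8.04). For Ski, both naive arrays (ranges 2.39 and 2.45) are the highest, and 4 months replicate 1, with the narrowest range of all (2.05), is the lowest.

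Other genes of the pathway and its targets were read from lists of 81 measured genes that are not members. For day 4 against naive lung 16 were called higher and 2 lower (22.2%, against 16.6% of all genes), and for week 2 against naive lung 13 higher and 0 lower (16%, against 9.62%). With array weights, day 4 against naive went from 5 to 4 called regulators, 3 to 1 receptors and 5 to 3 targets. Ligand activation genes and the kinase branch stayed at 2 and 3. At week 2, regulators went from 4 to 0, the kinase branch from 4 to 2 and targets from 4 to 3. Over all genes, calls went from 3677 to 1627 at day 4 and from 2134 to 728 at week 2. At 4 months, 1 was called higher and 17 lower against week 2 (22.2%, against 16.4% of all genes), and 5 higher and 17 lower against day 4 (27.2%, against 25.6%). The share for day 4 node against day 4 lung was 13.6%, with 0 higher and 11 lower, against 2.33% of all genes.

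Among genes that activate the ligand, Furin, the protease that cleaves the precursor, and Itgav, the alpha v integrin chain, were higher at day 4 than in naive lung. Furin went from 8.02 and 8.74 in naive lung to 9.42, 9.28 and 9.91 at day 4, a rise of 1.15 ± 0.23 (SE; adjusted p = 0.00328; 0.0612 with only the groups compared). Its node signals at day 4 were 8.40, 8.19 and 8.26, all below those of day 4 lung, with a difference of -1.25 ± 0.21 (adjusted p = 0.00221). At 4 months it was 7.97 and 8.18, lower than at day 4 by -1.46 ± 0.23 (adjusted p = 0.000421). Itgav went from 6.62 and 6.16 to 7.78, 7.94 and 8.77 at day 4, a rise of 1.78 ± 0.24 (adjusted p = 0.000179) that kept its call under every alternative run. These 2 were the called rises among 13 measured ligand activation genes, both at day 4 and at week 2, where 10.8% and 6.75% of all genes were called higher. The median difference of the 13 was -0.07 at day 4 and -0.01 at week 2, against -0.06 and -0.04 for all genes.

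Of 12 other receptors of the family, Bmpr2, a type II receptor for bone morphogenetic proteins (BMPs), and Acvr1, a type I receptor, were higher at day 4 than in naive lung (1.12 ± 0.26, SE, adjusted p = 0.00866, and 1.08 ± 0.27, adjusted p = 0.0115). Bmpr1a, a type I BMP receptor, was called lower (-0.55 ± 0.18, adjusted p = 0.0482; array weights 0.199), and the median of the 12 was -0.11, against -0.06 for all genes. The rise of Bmpr2 was lost without naive replicate 1 (0.77, adjusted p = 0.104), with quantile normalization repeated (0.72, adjusted p = 0.0695) and with only the groups compared (0.0614). That of Acvr1 was lost without naive replicate 2 (0.75, adjusted p = 0.122), with array weights (0.110) and with only the groups compared (0.111). Bmpr2 was 6.96, 6.91 and 7.44 in the day 4 node against 8.01, 8.27 and 8.63 in the day 4 lung, a difference of -1.20 ± 0.24 (adjusted p = 0.00894), or -1.11 (adjusted p = 0.0646) without day 4 mLN replicate 2 and -1.53 (adjusted p = 0.0593) without the 3 high-macrophage arrays. Of 9 other ligands, Bmp2 was called in 3 lung comparisons. It was 4.57, 4.58 and 4.44 at day 4, 5.88, 5.75 and 5.25 at week 2, and 5.97 and 6.13 at 4 months, and rose from day 4 to week 2 by 1.10 ± 0.23 (adjusted p = 0.0214). That rise was lost without any 1 of the day 4 arrays (1.05 to 1.12; 0.0564 to 0.0784) or without week 2 replicate 1 or 2 (0.97 and 1.03; 0.119 and 0.105).

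The regulators showed 5 of 21 called higher and 0 lower at day 4 against naive, where 10.8% of all genes were called higher. At 4 months 0 were called higher and 9 lower against each of day 4 and week 2, where 16.6% and 11.5% of all genes were called lower. With array weights the regulators called, in either direction, were 4 in each of these comparisons. Array weights called 2900 of 22180 genes for 4 months against day 4 and 1196 for 4 months against week 2. Smurf1, a ubiquitin ligase that acts on Smads and the receptor, rose by 0.96 ± 0.17 at day 4 (SE; adjusted p = 0.00147), and Fkbp1a, which binds the type I receptor and holds it inactive, by 1.03 ± 0.19 (adjusted p = 0.00168), which was lost without the 3 high-macrophage arrays (1.02, adjusted p = 0.0767). Trim33, a ubiquitin ligase that binds Smad2, Smad3 and Smad4, fell from week 2 to 4 months by a log2 difference of -0.97 ± 0.21 (adjusted p = 0.00742), which was lost without 4 months replicate 1 (-0.78, adjusted p = 0.0996) and with quantile normalization repeated (-0.44, adjusted p = 0.186). In the Smad-independent kinase branch, 3 of 8 genes rose at day 4, against 10.8% of all genes. They were Map2k3 (1.65 ± 0.27; adjusted p = 0.000700), Traf6 (1.35 ± 0.22; adjusted p = 0.000607) and Map3k7, which encodes the kinase TAK1 (0.85 ± 0.22; adjusted p = 0.0153; 0.65 and 0.119 without naive replicate 2).

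Genes known as TGF-beta targets were measured for 17 of 18 listed, and the list holds genes that TGF-beta lowers (Myc and the Id genes) beside those that it raises. At day 4 in the node 8 of 17 were called lower than in the lung and 0 higher, where 1.35% of all genes were called lower, with a median of -0.87 against 0.01 for all genes. The list was chosen with earlier results of these data known and mixes both directions, so this count is only a description. Pmepa1 and Ldlrad4, both induced by TGF-beta and both inhibitors of it, were lower there by -0.87 ± 0.17 (SE; adjusted p = 0.0103) and -0.90 ± 0.19 (adjusted p = 0.0157). Both are also in the list of regulators. Pmepa1 gave 6.15, 6.17 and 6.41 in that node group and from 6.93 to 7.42 in day 4 lung, with no overlap. Its call was lost without day 4 lung replicate 3 (-0.72, adjusted p = 0.0553) or day 4 mLN replicate 1 (-0.82, adjusted p = 0.0528) or 2 (-0.84, adjusted p = 0.0622). For Ldlrad4 the call was lost without day 4 lung replicate 3 (-0.74, adjusted p = 0.0863) or day 4 mLN replicate 1 (-0.90, adjusted p = 0.0589) or 2 (-0.85, adjusted p = 0.0872), and without the high-macrophage arrays (-1.21, adjusted p = 0.0663).

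Cdkn1a, which encodes the cell cycle inhibitor p21, and Gadd45b, a stress-response gene, were low in the day 4 node, as Smad7 and Skil were. Cdkn1a gave 6.12, 6.20 and 7.48 in the day 4 node, against 8.52, 8.69 and 9.87 in day 4 lung and 9.13, 9.02 and 8.61 in the week 2 node. The day 4 difference was -2.43 ± 0.34 (SE; adjusted p = 0.000483) and the rise to week 2 in the node 2.32 ± 0.34 (adjusted p = 0.000594). Gadd45b gave 7.61, 7.54 and 8.49 in the day 4 node, against 9.32, 9.39 and 10.72 in day 4 lung, a difference of -1.93 ± 0.31 (adjusted p = 0.00192). Within the node it rose to week 2 by 2.16 ± 0.31 (limma, adjusted p = 0.000591), to a mean of 10.04 against 9.91 in week 2 lung. The rises of Smad7 and Skil within the node were not called. In both tissues replicate 3 was the highest of its day 4 group for both genes. Tgfbi, a secreted matrix protein, was 7.22, 6.87 and 4.54 in day 4 lung and 3.76, 3.58 and 3.87 in the day 4 node (-2.47 ± 0.51; adjusted p = 0.0129). The 2 high Tgfbi arrays were those with high macrophage markers, and without them and week 2 lung replicate 3 the difference was -0.80 (adjusted p = 0.439). It also missed the threshold without day 4 lung replicate 1 (-1.97, adjusted p = 0.0804) or 2 (-2.14, adjusted p = 0.0787) or day 4 mLN replicate 2 (-2.39, adjusted p = 0.0683).

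Itgae, encoding CD103, had the largest differences among the target genes. It gave 6.19 and 4.63 in naive lung, 9.30, 9.18 and 9.53 at day 4, 7.48, 7.39 and 7.66 at week 2, and 4.86 and 4.63 at 4 months. In the node it gave 7.36, 7.42 and 7.94 at day 4 and 8.15, 7.77 and 8.53 at week 2. It rose by 3.93 ± 0.34 from naive to day 4 in the lung (SE; 15.2-fold; adjusted p = 3.06e-06) and was lower at week 2 than at day 4 by -1.83 ± 0.30 (adjusted p = 0.00264; -2.09 and 0.140 without the 3 high-macrophage arrays) and at 4 months than at day 4 by -4.59 ± 0.34 (adjusted p = 6.12e-07). Nt5e, which encodes the ectoenzyme CD73, rose by 2.45 ± 0.23 at day 4 (adjusted p = 6.06e-06) and was lower at week 2 than at day 4 by -0.93 ± 0.20 (adjusted p = 0.0255). That second difference of Nt5e was lost without any 1 of the 6 lung arrays compared (adjusted p = 0.0571 to 0.127) and without the 3 high-macrophage arrays (-1.25, adjusted p = 0.227). At week 2 Smad7 and Skil had lung means of 7.96 and 8.35, against 7.60 and 8.18 at day 4, and neither difference passed (adjusted p = 0.529 and 0.881).

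**Figure D4:**
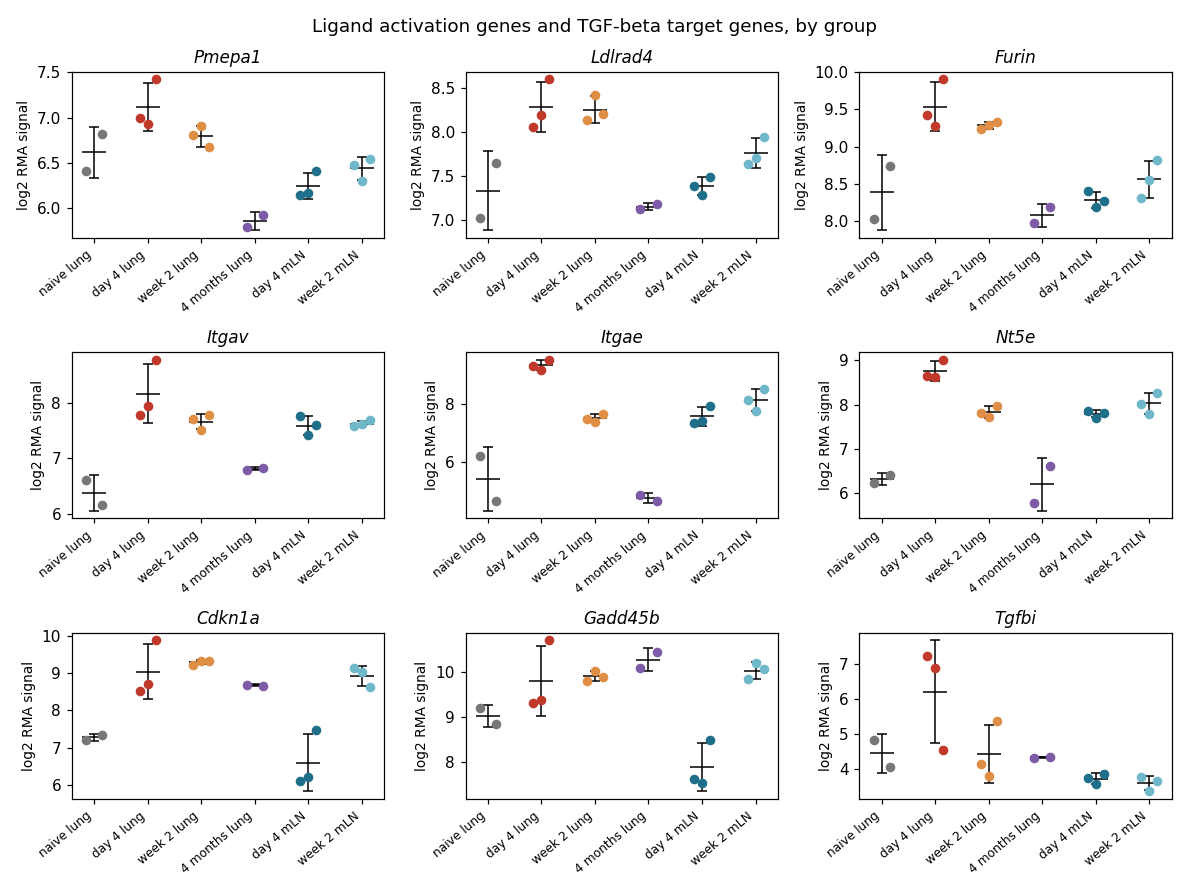
Log2 RMA signal of ligand activation genes (Furin, Itgav) and TGF-beta target genes in each group, 1 point per array, with the group mean (horizontal bar) and SD (error bar). Pmepa1, Ldlrad4, Furin, Cdkn1a and Gadd45b are lower in the day 4 node than in the day 4 lung, and Tgfbi is high on 2 of 3 day 4 lung arrays (7.22 and 6.87).

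The group means of each member can be put in order, but most neighbours in that order did not differ. Of the neighbouring steps across the 6 groups, the step from the week 2 node (6.42) down to 4-month lung (5.54) in Ski was the one below an adjusted p of 0.05 (difference 0.87; adjusted p = 0.00551). For Tgfb1 the order was day 4 lung, week 2 lung, day 4 node, 4-month lung, week 2 node and naive lung. For Smad7 and Skil it began with week 2 lung, day 4 lung and the week 2 node and ended with the day 4 node, with naive and 4-month lung in between.

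Genes whose pattern over the 16 arrays was most like that of a member were named by Pearson correlation, as a description. Smad7 was most like Irs2 (r = 0.97), which encodes an insulin receptor substrate, and Fam110a (0.96), and Skil was most like Slc27a6 (0.94) and Cd44 (0.88), an adhesion receptor. Tgfbr2 was most like Slc25a1 (0.96), the mitochondrial citrate carrier, and Smad2 most like Rit1 (0.95). The highest correlations for Tgfb1 were with Arl3 and Fsd1l (0.89 each), and for Ski with Acp2 and Trpc4ap (0.87 each). Between members, the correlations of Smad7 with Skil and of Tgfbr2 with Smad2 were both 0.74. All these arrays share their groups and, for naive and 4-month lung, a narrow signal range.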

How the data were processed

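The authors deposited 1 log2 signal for each probe set on each array. Per the submitters' processing notes it was computed by RMA in Affymetrix Expression Console. Trizol was used to extract RNA and a Nugen Encore kit to label it with biotin, per the labels' protocols. The build and software versions were not given in the sources used here. RMA equalises probe signal distributions, so total RNA per cell cannot be compared, and detection was not reassessed. The number of arrays limits the precision.

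Of 41345 probe sets, 23521 had 1 gene symbol, 1814 several and 16010 none. Genes were named from those with 1 symbol, by the probe set with the highest mean, which left 22180 genes.

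Group means were fitted to all 16 arrays with limma 3.58.1 in R 4.3.3 (10 residual and 6.52 prior degrees of freedom, two-sided tests, no trend, no filter, no block). The procedure was also run on simulated data, with independent normal values of a spread set by group. The narrow signal range of naive and 4-month lung was not simulated. The named genes are all 9 members, up to 3 called genes of each pathway and target list per comparison, and the 3 genes most like each called member. The members and lists were chosen with earlier results of these data known. Alternatives were array medians centred, quantile normalization repeated, genes under the 40th percentile left out, trend and robust options, array weights, probe set means per gene, a block for the replicate number, the 12 arrays outside naive and 4-month lung, only the groups compared, leaving out 3 arrays with high macrophage markers, and leaving out each array. Figures were drawn with matplotlib 3.10.9.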

Additional observations from a re-analysis of the deposited data

Results flagged for a closer look

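The change of Itgae (CD103) from day 4 to week 2 differed between the tissues. In the lung its mean fell from 9.34 to 7.51, while in the node the signals were 7.36, 7.42 and 7.94 at day 4 and 8.15, 7.77 and 8.53 at week 2. The difference of changes, node minus lung, was 2.41 ± 0.43 (SE; limma, adjusted p = 0.0265; array weights 0.00166). It missed the threshold when quantile normalization was repeated (2.40; adjusted p = 0.0588), without the 3 high-macrophage lung arrays (2.67; 0.187), and without any 1 of the 6 lung arrays, day 4 mLN replicate 1 or 2 or week 2 mLN replicate 1 or 3 (2.22 to 2.48; 0.0515 to 0.108).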

How the results depend on the processing

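No member's called difference changed sign under any alternative run. The number of members called, with its range over fits that leave out 1 array, moved as follows. For day 4 against naive lung it was 2 (0 to 2), 1 with array weights or the replicate block (Tgfb1, higher), 1 with quantile normalization repeated (Ski, lower, in place of both rises), and 0 without the 3 high-macrophage arrays or with only the groups compared. For week 2 against naive lung it was 1 (0 to 3), 1 with quantile normalization repeated (Ski, lower, in place of Skil, higher), 2 with medians centred, dim genes left out or the trend and robust options, and 0 with array weights, without the high-macrophage arrays or with only the groups compared. For 4 months against naive lung it was 1 (1 to 2), and 0 with array weights or only the groups compared. For 4 months against week 2 it was 4 (0 to 5), 1 with quantile normalization repeated, 2 with array weights and 1 without the high-macrophage arrays. Against day 4 at 4 months it was 4 (2 to 4), 1 with quantile normalization repeated, 2 with array weights or only the groups compared, and 1 without the high-macrophage arrays. For day 4 node against lung it was 2 (0 to 2), and 1 without the high-macrophage arrays or with only the groups compared. For week 2 node against lung it was 0 (0 to 0), and 1 with array weights. Week 2 against day 4 in the lung, in the node and the difference between them stayed at 0. The cause of these moves was not tested. In fits that leave 1 array in a group, that array is assumed to vary like the others.

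Deviations of same-numbered arrays correlated at -0.104 to 0.184, with 2 of 36 pairs over 0.1. Between lung and node of the same time they were 0.0920, 0.0285 and 0.184 at day 4 and 0.0281, 0.0120 and 0.0188 at week 2. Such correlations cannot show whether replicate numbers pair the samples. With the replicate block, Skil at day 4 against naive was 0.78 (adjusted p = 0.0523), Tgfbr2 at 4 months against week 2 was -0.67 (0.0523) and Tgfb1 at 4 months against day 4 was -0.73 (0.0565).

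Over all genes, calls for 4 months against naive went from 436 to 4 with array weights and 0 with only the groups compared, and for 4 months against week 2 from 3633 to 1214 with quantile normalization repeated and 1196 with array weights. Between 4 months and day 4 they went from 5678 to 3034 and 2900, and for day 4 against naive from 3677 to 2231 and 1627. Centring the medians moved the median of all genes by -0.12 and -0.14 for 4 months against week 2 and day 4. The share of calls that were higher, as deposited, centred and quantile normalized, was 65.4%, 78.8% and 55.5% for day 4 against naive, 70.2%, 80.2% and 59.8% for week 2 against naive, 36.5%, 30% and 49.2% for 4 months against naive, 29.6%, 16% and 49.7% for 4 months against week 2, 35.2%, 19.7% and 48.9% for 4 months against day 4, and 42.8%, 55.7% and 40.7% for week 2 node against lung.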
